A study of Homo sapiens with 4 samples.

Results

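The regions described here come from a MOV10 iCLIP study with control pull-downs and map to human chromosomes 16, 17, 19 and 22. They were chosen by chromosome name alone from the deposited list of consolidated regions, and no read count entered the choice. The choice gave 318 of 1181 regions, with 64 on chromosome 16, 127 on chromosome 17, 87 on chromosome 19 and 40 on chromosome 22. The other 18 autosomes hold 808 regions and serve as the comparison, and the 55 regions on X and Y were set aside.

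The cells were HEK293F, a human embryonic kidney line, and the labels name no other genotype or treatment. In iCLIP (individual-nucleotide crosslinking and immunoprecipitation), UV light joins protein to RNA, an antibody pulls the protein down, and the attached RNA is copied and sequenced. Each of 2 experiments had a pull-down with a MOV10 antibody and a control pull-down with an antibody against zebra finch FMRP, which makes 4 libraries, 2 in each group. Each deposited read list is labelled for both pull-downs of its experiment, so its reads cannot be tied to either of them. MOV10 therefore cannot be compared with the control here, and every value below is a value of experiment 1 or experiment 2. The labels call these experiments replicates 1 and 2, and do not say whether they came from separate cultures.

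MOV10 is an RNA helicase related to UPF1, the helicase of nonsense-mediated decay. It binds messenger RNAs, mostly in their 3' untranslated regions, and associates with the fragile X protein FMRP and with the Argonaute complex that microRNAs guide. Chromosomes 17, 19 and 22 are among the most gene-dense of the human genome, and genes crowd near the tip of the short arm of chromosome 16.

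Gene names below are the likely hosts of a region at its hg19 position. They come from general knowledge of these loci and not from an hg19 annotation, and whether a region is exonic, intronic or in an untranslated region was not analysed here. Names were given to 106 of the 318 regions, for 63 genes. All 63 lie on the same chromosome and strand in GENCODE release 29, and all 59 neighbouring pairs among them have the same order there.

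The read lists hold 4021 reads for experiment 1 and 6032 for experiment 2, all within listed regions, so they do not give library depth. Reads with the same ends and strand were counted once, as a distinct fragment, which gave 1806 and 1656 fragments. The 318 regions took 1055 reads (26.2%) in experiment 1 and 1857 (30.8%) in experiment 2. Of the distinct fragments they took 515 (28.5%) and 491 (29.6%). The experiments share fragment ends to a large extent: 271 of the 318 regions (85.2%) hold a pair of fragments, 1 from each experiment, whose 3' ends match and whose 5' ends match or lie 1 nt later in experiment 2. On the other autosomes this holds for 702 of 808 (86.9%). The list keeps only regions present in both experiments, so some of this sharing is set by that choice. Whether such fragments are separate molecules was not tested, and all intervals below cover counting error only.

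Relative to their genes, these chromosomes held more regions than the rest of the autosomes. They carried 28.2% of the 1126 autosomal regions (95% exact Clopper-Pearson interval 25.6 to 31.0) and 20.8% of the autosomal protein-coding genes of GENCODE release 29, 3955 of 19019. That is 8.04 regions per 100 genes against 5.36 on the other autosomes. Regions of 1 transcript are not independent of each other, so no test was made on this share. With regions up to 1000 nt apart on the same strand joined into loci, 282 loci remained on the 4 chromosomes and 751 on the others, and the share was 27.3%.

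The 4 chromosomes were not alike. Chromosome 17 had 10.7 regions per 100 genes (exact Poisson interval 8.93 to 12.7), the highest of the 22 autosomes. Chromosome 22 came second with 9.05 (6.47 to 12.3) and chromosome 16 came next with 7.49 (5.76 to 9.56). These 3 intervals overlap, and chromosome 12, outside the members, is 4th with 7.05 (5.52 to 8.86). Chromosome 19 had 5.91 (4.73 to 7.29), the 8th highest, although it is the most gene-dense autosome at 25.2 protein-coding genes per Mb. Its interval lies below that of chromosome 17 and contains the 5.36 of the other autosomes. Chromosome 11 is slightly denser in genes than chromosome 16, at 9.75 against 9.50 per Mb, and had 3.51 regions per 100 genes (2.57 to 4.69). Counted as loci per 100 genes, chromosomes 17, 22, 16 and 19 had 8.85, 8.37, 6.67 and 5.64, and chromosome 12 had 6.08. The intervals treat regions as independent, which regions of 1 transcript are not. How strongly the genes of each chromosome are expressed in HEK293F, and how many copies of each chromosome the line carries, was not tested.

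**Figure D1:**
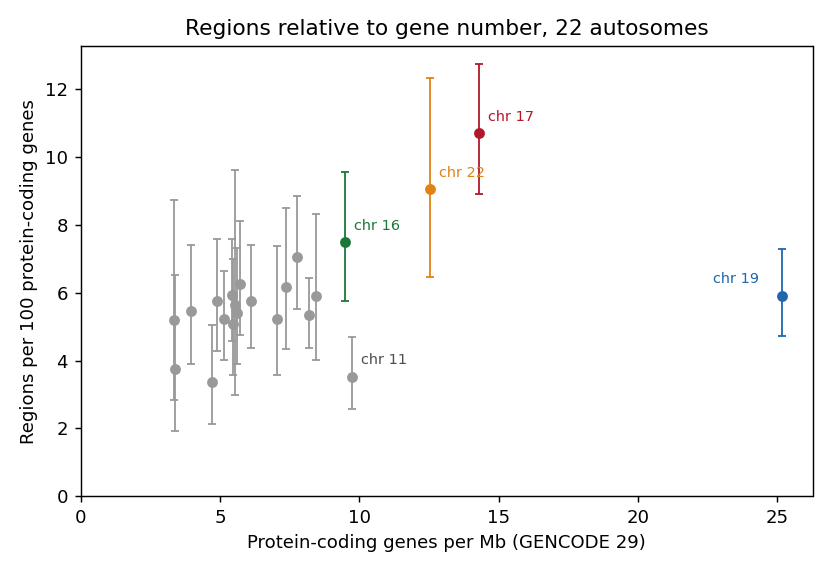
Regions per 100 protein-coding genes (vertical axis, with 95% exact Poisson intervals) against protein-coding genes per Mb (horizontal axis) for the 22 autosomes. Chromosomes 16, 17, 19 and 22 are coloured, the other autosomes are grey; chromosome 17 is highest at 10.7, and chromosome 19, at 25.2 genes per Mb, is among the grey points in height at 5.91.

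By chromosome arm, 196 of the 318 regions (61.6%, interval 56.0 to 67.0) lay on long arms and 122 on short arms. The long arms of chromosomes 16, 17, 19 and 22 are also the longer ones, at 53, 57, 33 and 36 Mb against 37, 24, 26 and 15 Mb. The share was not compared with that of arm length, so neither an excess nor a lack on long arms is drawn from it. Chromosomes 16 and 19 held more on the short arm. Chromosome 16 had 43 regions on its short arm and 21 on its long arm, or 1.16 and 0.396 per Mb. The long arm of chromosome 16 was the most thinly filled of the 7 arms with regions. Chromosome 17 had 33 regions on the short arm (1.38 per Mb) and 94 on the long arm (1.65 per Mb). Chromosome 19 had 46 on the short arm (1.77 per Mb, the highest of all arms here) and 41 on the long arm (1.24 per Mb). On chromosome 22 all 40 regions lay on the long arm (1.11 per Mb), and its short arm, which is made of repeats and ribosomal RNA genes, had none. Whether reads can be placed on that short arm in hg19 was not checked, so nothing is drawn from the absence. Arms were split at a rounded position of the centromere, at 37, 24, 26 and 15 Mb for chromosomes 16, 17, 19 and 22.

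Large parts of the short-arm regions lay near the arm tips. The first 5 Mb held 18 of the 43 short-arm regions of chromosome 16, 15 of the 33 of chromosome 17 and 22 of the 46 of chromosome 19. Such crowding was not limited to short arms: the windows from 79 to 80 and from 80 to 81 Mb, near the long-arm tip of chromosome 17, held 10 and 9. Long-arm tips were not counted in the same way, and the share of genes near the tips was not taken into account. Strand was close to even over all members, with 174 on the plus strand (54.7%, 49.1 to 60.3) and 144 on the minus strand. Chromosome 16 leaned to the plus strand, with 44 of 64 regions (68.8%, 55.9 to 79.8), and its 7 regions in CAPN15 and 4 in MAZ, all on the plus strand, are part of that count.

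In windows of 1 Mb, regions were crowded on these chromosomes. They occupied 141 windows, of which 22 held at least 4 regions, and those 22 held 126 of the 318 regions (39.6%). On the other autosomes 521 windows were occupied and 26 held at least 4, with 126 of 808 regions (15.6%). A single region stood alone in 63 of the 141 windows (44.7%), against 345 of 521 (66.2%) on the other autosomes. The fullest windows held 10 regions here and 8 elsewhere. Chromosomes 19, 17, 22 and 16 rank 1st, 2nd, 3rd and 5th of the autosomes in protein-coding genes per Mb. Window counts were not adjusted for genes or regions per Mb, so the fuller windows are not a result apart from that density.

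**Figure D2:**
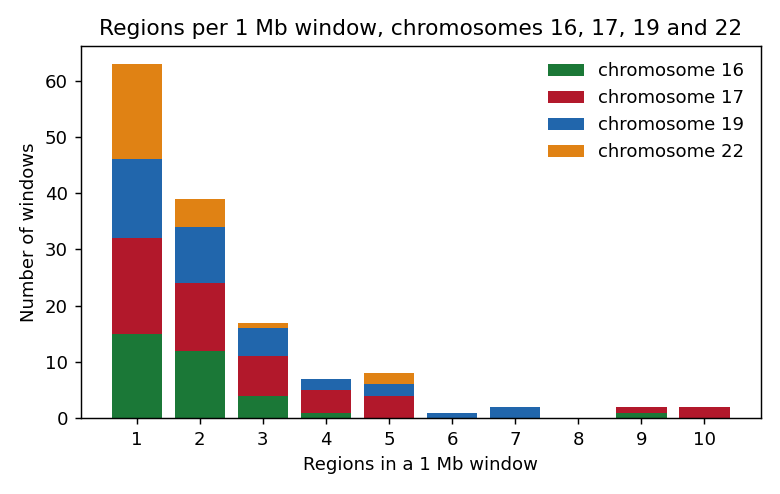
Number of 1 Mb windows (vertical axis) by the number of regions in the window (horizontal axis), stacked by chromosome. Most of the 141 windows hold 1 or 2 regions, and the windows with 9 or 10 lie on chromosomes 16 and 17.

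Crowded windows were of 2 kinds, those filled by a single gene and those shared by several genes. The window from 47 to 48 Mb of chromosome 17 is of the first kind. All of its 10 regions, on the plus strand within 6214 nt, lie in IGF2BP1, which encodes an RNA-binding protein that stabilises messenger RNAs, and they held 101 reads and 43 distinct fragments in experiment 1 and 23 reads and 16 fragments in experiment 2. Of these, chr17:47131109-47131202 has the most distinct fragments in the sum of both experiments, with 22 reads (11 fragments) and 10 reads (5 fragments). The most reads lie in chr17:47130426-47130529, with 34 (11 fragments) and 2 (2 fragments). Counted as loci, these 10 regions are 2.

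The window from 79 to 80 Mb of chromosome 17, near the tip of its long arm, is of the second kind. It held 10 regions in 7 loci over 553957 nt, 8 of them on the minus strand, with 36 reads in experiment 1 and 412 in experiment 2. Most of that excess came from 2 regions. The region at chr17:79826025-79826131 on the minus strand, in ARHGDIA, held 4 reads in experiment 1 and 203 in experiment 2. An unnamed region at chr17:79842437-79842491 held 2 and 189. Its 3 unnamed neighbours on the same strand, the first at chr17:79841653-79841730 and the last at chr17:79844001-79844038, held 1 to 4 reads in each experiment. ACTG1, which encodes cytoplasmic gamma-actin, had 2 regions with 13 reads and 8 reads in all. Actin genes have near-identical copies elsewhere in the genome, and their part in the mapping quality of these 2 regions was not tested. The median mapping quality, on a scale to 70, was 31 and 23 in chr17:79477152-79477208, so the assignment of that region is uncertain. In the other, chr17:79477241-79477288, it was 36 and 49.5, and the best read had 50 in experiment 1 and 70 in experiment 2. BAHCC1, CENPX, a centromere protein that also acts in DNA repair, and LRRC45 had 1 region each, with 1 to 4 reads in each experiment.

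The next window, from 80 to 81 Mb of chromosome 17, held 9 regions in 9 loci over 722049 nt and 19 and 25 reads. FASN, the fatty acid synthase gene, had 4 of them spread over 15228 nt, and they held 6 reads in experiment 1 and 10 in experiment 2. FOXK2, a forkhead transcription factor gene, had 2 regions with 6 and 4 reads. TBCD, which encodes a tubulin-folding cofactor, had 1 with 1 read and 7. CCDC57 had 1 with 5 and 3, and an unnamed minus-strand region had 1 read in each. The window thus reached its count with low depth in every region: no region held more than 7 reads in either experiment.

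At the tip of the short arm of chromosome 16, the window from 0 to 1 Mb held 9 regions in 7 loci over 248244 nt, with 38 and 32 reads. CAPN15, a gene of the calpain protease family, had 7 of them over 9712 nt, with 31 and 28 reads in 17 and 15 distinct fragments. The fullest was chr16:588679-588770, which held 16 reads in experiment 1 and 13 in experiment 2, with 8 fragments in each. The other 6 CAPN15 regions held 1 to 6 reads in each experiment. AXIN1, a scaffold of the beta-catenin destruction complex, had a region with 5 and 3 reads on the minus strand, and RAB11FIP3, which encodes a partner of the recycling GTPase RAB11, had a region with 2 and 1.

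On the short arm of chromosome 19, the window from 1 to 2 Mb held 7 regions, 6 on the minus strand, with 39 reads in experiment 1 and 18 in experiment 2. MBD3, a subunit of the NuRD chromatin-remodelling complex, had 5 regions over 11259 nt with 25 and 16 reads. The widest region of chromosome 19 is among them, chr19:1577168-1577275 at 108 nt, with 10 reads and 1. STK11, the gene of the tumour suppressor kinase LKB1, had a region at chr19:1205801-1205880 with 11 reads (8 fragments) and 1 read. REXO1, an exonuclease-domain gene, had a region with 3 and 1.

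The window from 3 to 4 Mb of chromosome 19 held 7 regions with 34 and 31 reads. EEF2, which encodes the elongation factor that moves the ribosome along the message, had 3 of them over 1422 nt with 20 reads in each experiment. The EEF2 region chr19:3977236-3977317 held 6 and 17 reads, chr19:3976177-3976219 held 9 and 1, and chr19:3977534-3977598 held 5 and 2. By Fisher's exact test none of the 3 was called by distinct fragments, and chr19:3976177-3976219 alone was called by reads. NFIC, CACTIN, PIP5K1C and APBA3 had 1 region each with 1 to 6 reads. NFIC encodes a nuclear factor I transcription factor and PIP5K1C a kinase that makes phosphatidylinositol bisphosphate.

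The window from 18 to 19 Mb of chromosome 19 held 6 regions, 3 on each strand, with 18 reads and 8. UPF1, the helicase of nonsense-mediated decay that MOV10 resembles, had a region at chr19:18977770-18977796 with 7 reads (3 fragments) and 3 reads (1 fragment). LSM4, a subunit of the ring that binds the ends of RNAs due for decapping, had 2 regions with 4 reads and 2 in all. PIK3R2, a regulatory subunit of phosphoinositide 3-kinase, PGPEP1, a peptidase gene, and FKBP8, an immunophilin gene, had 1 each with 1 to 3 reads.

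On chromosome 22 the window from 42 to 43 Mb held 5 regions with 31 reads and 17. CCDC134 had the deepest, chr22:42204918-42204995, with 15 reads (6 fragments) and 2 reads (2 fragments). SREBF2, the transcription factor that drives cholesterol synthesis, had a region with 2 and 11. TCF20, a transcriptional coregulator, had 2 regions with 7 and 3, and RRP7A, a ribosome biogenesis factor, had 1 with 7 and 1. The neighbouring window from 41 to 42 Mb also held 5, with 10 reads and 220. Nearly all of the 220 lay in 3 regions of ZC3H7B, a zinc-finger gene, which held 4 reads and 218.

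The other windows with at least 5 regions lie on chromosome 17, at 1, 38, 74 and 77 Mb, and on chromosome 19, at 4 and 50 Mb. Each held exactly 5. The genes that fill them with more than 1 region are THRA, the thyroid hormone receptor alpha gene, with 3 regions over 28183 nt, TBC1D16 with 3 over 1082 nt, RNF157 with 2 and CHAF1A, a histone chaperone subunit, with 2. Windows with 4 regions in a single gene were those of MAZ on chromosome 16, a zinc-finger transcription factor gene whose 4 regions span 479 nt, and of VAT1 on chromosome 17, whose 4 regions span 486 nt. VAT1 had 25 reads and 7, most of them in chr17:41167202-41167314, the widest region of its chromosome at 113 nt, with 15 reads and 2.

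Regions on these chromosomes were slightly wider than elsewhere. Their median width was 42 nt (interquartile range 31 to 57, range 17 to 166) against 37 nt (29 to 49, range 18 to 131) on the other autosomes. The median was 40 nt on chromosome 16, 42 nt on chromosomes 17 and 19 and 43 nt on chromosome 22. Such medians were also met elsewhere, with 44 nt on chromosome 18, the widest of the autosomes, and 42 nt on chromosome 11. From the reads of experiment 1 alone it was 40 nt against 36, and from those of experiment 2 alone 38 against 35. Regions of at least 50 nt made up 36.2% of the members (115 of 318) and 23.8% of the others (192 of 808). A region's width is the reach of its merged reads, so more fragments can only widen it. The widest on chromosome 22, chr22:38616534-38616631 in TMEM184B, is 98 nt and held 1 read in each experiment.

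More regions of these chromosomes held several distinct fragments. In 123 of 318 (38.7%, 33.3 to 44.3) at least 1 experiment had 2 or more, against 237 of 808 (29.3%, 26.2 to 32.6). The difference is 9.35 percentage points (Newcombe interval 3.24 to 15.6). It was 6.91 points in experiment 1 (29.6% against 22.6%, interval 1.29 to 12.8) and 5.21 points in experiment 2 (16.4% against 11.1%, interval 0.862 to 10.1). Chromosome 19 was lowest of the 4 at 29.9%, near the other autosomes, and chromosomes 16, 17 and 22 had 42.2%, 43.3% and 37.5%. Among the 22 autosomes chromosomes 17, 16, 22 and 19 rank 1st, 2nd, 5th and 10th. Chromosome 12 is 3rd at 41.1% and chromosome 2 is 4th at 38.5%, so high shares were also met elsewhere. These intervals treat regions as independent, which regions of the same transcript are not.

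Within width classes the difference varied. Below 30 nt, 16.2% of the members and 11.7% of the others held several fragments. Among regions of 30 to 49 nt, 27.4% of the members and 25.9% of the others held several fragments, 1.55 points apart. Among regions of at least 50 nt the shares were 65.2% (55.8 to 73.9) and 55.7% (48.4 to 62.9). Counted by reads, regions with 2 or more in at least 1 experiment differed by 1.59 points. The typical region was shallow in both sets: 195 members (61.3%) and 571 others (70.7%) held a single distinct fragment in each experiment, and the median number of reads was 2 in each experiment for the members and 2 and 1 for the others.

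**Figure D3:**
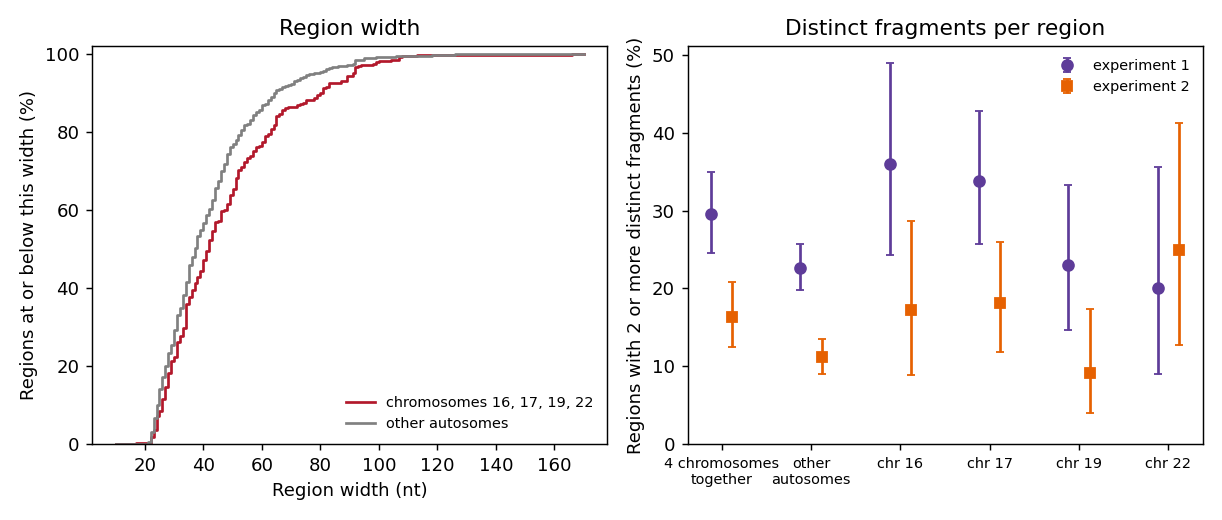
Left, the cumulative share of regions (percent) by width (nt) for chromosomes 16, 17, 19 and 22 and for the other autosomes; the curve of the 4 chromosomes lies to the right, with medians of 42 and 37 nt. Right, the percent of regions with 2 or more distinct fragments in experiment 1 and in experiment 2, with 95% exact Clopper-Pearson intervals, for the 4 chromosomes together, the other autosomes and each chromosome.

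Reads on these chromosomes also mapped with higher quality. The deposited score of a read runs from 0 to 70 and was taken as its mapping quality, where a high value means that no other place in the genome fits nearly as well. Scores were also lower in short regions. Below 30 nt the median in experiments 1 and 2 was 50 and 49 for members and 45 and 44 for others, against 70 in wider regions. Whether a lower score in a short region marks another matching place was not tested. The median read was at 30 or more in both experiments in 285 of 318 regions (89.6%, 85.7 to 92.7) against 669 of 808 (82.8%, 80.01 to 85.3), a difference of 6.83 points (2.27 to 10.8). In experiment 1 the shares were 92.5% and 85.8%, and in experiment 2 they were 92.1% and 86.0%. By chromosome the share was 90.6% on 16, 88.2% on 17, 87.4% on 19 and 97.5% on 22, where RRP7A held the only region below the threshold. Among the 22 autosomes chromosomes 22, 16, 17 and 19 rank 1st, 3rd, 6th and 8th, and chromosome 18, with 14 regions, is second at 92.9%. The best read reached the top score of 70 in 73.6% and 70.8% of the members in experiments 1 and 2, against 62.0% and 58.8%. In members of 27 nt or less, no best read reached 70 in either experiment. Regions under 30 nt made up 21.4% of the members and 25.5% of the others. The top-score shares were not compared at equal width, and the part of width in their difference was not tested.

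By value, the difference in quality was largest among short regions. Below 30 nt, 82.4% of 68 members (71.2 to 90.5) and 69.4% of 206 others (62.6 to 75.6) passed the threshold. From 30 to 49 nt the shares were 93.3% and 87.8%, and from 50 nt they were 89.6% and 86.5%, with overlapping intervals in each width class. The differences are 12.9, 5.53 and 3.11 points.

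**Figure D4:**
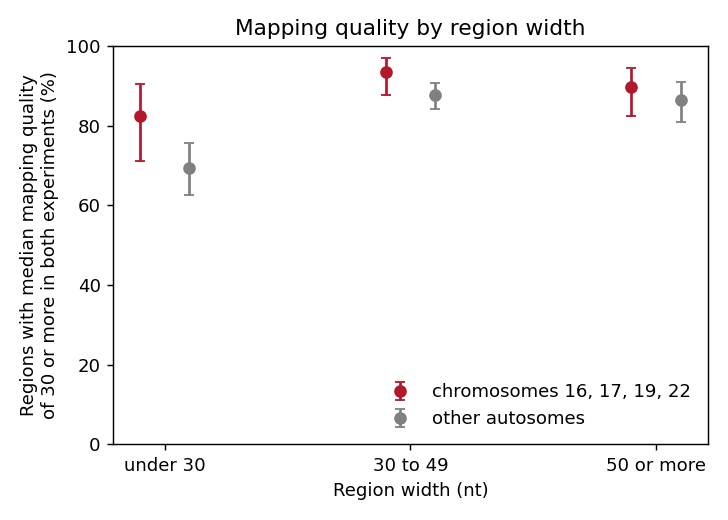
Percent of regions whose median read had a mapping quality of 30 or more in both experiments (vertical axis) by width class in nt (horizontal axis), with 95% exact Clopper-Pearson intervals. Chromosomes 16, 17, 19 and 22 lie above the other autosomes in each class, at 82.4% against 69.4% below 30 nt, and the intervals overlap.

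The 33 members below the threshold were of several kinds. In 16 the median was low in both experiments, in 8 in experiment 1 only and in 9 in experiment 2 only, and 12 of the 33 were under 30 nt wide. All reads had a score of 0 in 2 of them, chr16:47533696-47533718 and chr19:39589842-39589858, so their place in the genome is not known. The region chr19:24010544-24010632 is in RPSAP58, a pseudogene of a ribosomal protein gene, with median qualities of 25.5 and 23. The unnamed region chr16:33963885-33963957, beside the centromere, held 23 reads (13 fragments) in experiment 1 and 2 reads (2 fragments) in experiment 2, with median qualities of 47 and 16.5.

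A few members took most of the reads that the members held in experiment 2. The 7 with at least 50 reads in an experiment held 1114 of those 1857 reads (59.99%) and 25 of the 1055 in experiment 1 (2.37%). The other autosomes show much the same in experiment 2, where 11 such regions held 2011 of 3677 reads (54.7%), and 14.6% in experiment 1. Besides the 2 regions at 79 Mb of chromosome 17, they lie in MLLT6, TRAF7, WIZ, ZC3H7B and MAZ. MLLT6 encodes a chromatin protein fused to MLL in leukaemia, TRAF7 an E3 ubiquitin ligase and WIZ a zinc-finger partner of the G9a histone methyltransferases.

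The MLLT6 region, chr17:36882299-36882331, held 6 reads in experiment 1 and 180 in experiment 2, in 2 and 9 distinct fragments, at median qualities of 30 and 27. The ZC3H7B region, chr22:41755398-41755424, held 2 and 176 reads in 1 and 7 fragments, at 61 and 37. The MAZ region, chr16:29822099-29822264, is the widest of all 1181 regions at 166 nt and held 8 and 78 reads in 4 and 10 fragments, at 70 and 9. In these 3 regions and in the unnamed one at 79 Mb of chromosome 17 (70 and 60) the median mapping quality was lower in experiment 2, and its part in the read difference was not tested. It was not lower in the other 3, at 68.5 and 70 in ARHGDIA, 70 and 70 in TRAF7 and 56 and 56 in WIZ.

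By distinct fragments, 3 of the 318 members differed in their share between the experiments, all higher in experiment 2. The test was a two-sided Fisher's exact test per region with Benjamini-Hochberg adjustment over all 1181 regions, at an adjusted p of 0.05, and it compares these 2 read lists, not conditions. Over the whole list 5 regions were called (0.423%), and 24 had an unadjusted p under 0.05, of which 9 were members. The ARHGDIA region held 2 fragments in experiment 1 and 33 in experiment 2 (log2 ratio of shares 3.87, exact test, adjusted p = 4.52e-06). The TRAF7 region, chr16:2226061-2226123, held 1 and 18 fragments, from 1 read and 164 (log2 ratio 3.75, exact test, adjusted p = 0.00834). The WIZ region, chr19:15533256-15533305 on the minus strand, held 1 and 16, from 2 reads and 124 (log2 ratio 3.58, exact test, adjusted p = 0.0196).

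These calls did not hold when fragments with nearly the same ends were joined. Fragments were joined where both their 5' and 3' ends lay within 1 nt of each other. Joining ran along chains, so fragments further apart could also fall into 1. After joining, the ARHGDIA region had 2 and 10 fragments, TRAF7 1 and 7 and WIZ 1 and 4. By Fisher's exact test 0 of 1181 regions were then called (0%), with 8 at an unadjusted p under 0.05, 4 of them members. With reads of mapping quality 30 or more, 2 regions were called (0.169%), 1 of them a member. The 3 called members hold over 50 reads each. Among the 1161 regions below 50 reads in both experiments, where these 3 are not tested, 0 were called by Fisher's exact test (0%), with 8 at an unadjusted p under 0.05.

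By reads, 22 of the 318 members were called (6.92%) against 54 of 1181 over the list (4.57%). Of the 22, 10 were higher in experiment 2, where 25 regions (2.12%) were called over the list, and 12 were higher in experiment 1, where 29 (2.46%) were. Reads with the same ends may be copies of a molecule, so the read test has p-values that can be too small. Each read name also carries a number that was taken as a count of copies. Its sum over the members was 1756 in experiment 1 and 26963 in experiment 2, and over the other autosomes 14440 and 45989. The part of such copies in the read calls was not tested. Among those higher in experiment 1 were chr17:74138620-74138687 in RNF157, a ubiquitin ligase gene, with 23 reads and 1, and chr17:60142449-60142494 in MED13, a subunit of the Mediator kinase module, with 20 and 2. Higher in experiment 2, beside the regions above 50 reads, were chr22:41755055-41755118 in ZC3H7B with 1 and 37 and chr17:34069663-34069769 in RASL10B, a Ras-like GTPase gene, with 1 and 24. The unnamed region chr17:61670298-61670351, with 1 and 19, was called in the same direction. Over all members 168 had more reads in experiment 1, 73 in experiment 2 and 77 had as many in each, and the other autosomes were divided much alike, at 423, 173 and 212.

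**Figure D5:**
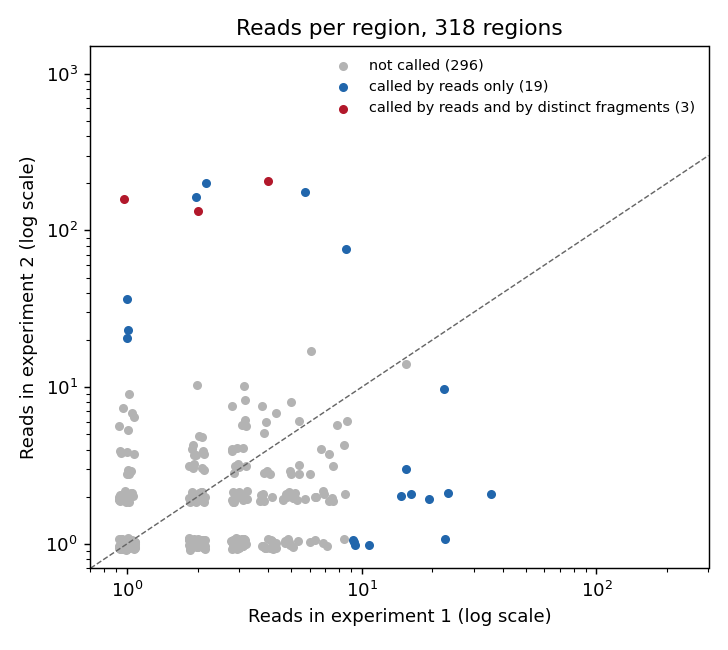
Reads in experiment 1 (horizontal, log scale) and experiment 2 (vertical, log scale) for the 318 regions, slightly shifted at random so that points do not hide each other. Colours mark the 3 regions called by distinct fragments and by reads, the 19 called by reads only and the 296 not called; the dashed line marks equal reads, and the 7 regions with more than 50 reads lie far above it.

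The 20 members with the most distinct fragments held 7 to 35 in the sum of both experiments. They were wide, with a median of 81 nt (27 to 166), and 17 of the 20 passed the quality threshold. Of these 20, 9 had more fragments in experiment 1, 10 in experiment 2 and 1 had as many in each. The even region was chr16:588679-588770 in CAPN15.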

How the data were processed

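HEK293F iCLIP libraries were analysed from a list of aligned reads per experiment (2 in all) and a list of consolidated regions. Positions were deposited on hg19. The submitters' processing notes name CASAVA 1.8.2, Novoalign, SAMtools and bedtools; how regions were called is not given in the sources used here. A deposited score is a whole number from 0 to 70, and reading it as mapping quality is an inference from the values. No library depth can be had from these files. A read was counted in the region it overlapped. Reads with the same ends and strand were 1 distinct fragment.

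Members were compared with regions on the other 18 autosomes by medians and by shares, with 95% Clopper-Pearson, Poisson or Newcombe intervals and no test, since regions are not replicates. Shares of fragments in experiments 1 and 2 were compared by Fisher's exact test with a pseudocount of 0.5 in the log2 ratio (scipy 1.17.1 under Python 3.11.15, with pandas 2.3.3, numpy 2.4.6 and matplotlib 3.10.9). The test was also run on simulated counts drawn independently of each other. Those hold no copies or near-identical ends, so they do not show how the test behaves with such reads and fragments. The planned measure, 2 or more fragments in the sum of both experiments, is met by every region, so 2 or more in at least 1 experiment was used, a choice made after seeing the data. GENCODE release 29 is of build GRCh38 and gave gene numbers, density, strand and order only.

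By rule, the named regions are those called by fragments, the 20 with the most fragments, those of the 8 fullest windows and the widest of each chromosome; other names were chosen after their values were seen. The members and lists were chosen with earlier results of these data known. Alternatives covered loci, mapping quality, window position, each chromosome and each experiment left out, the unit counted and read-rich regions.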

Additional observations from a re-analysis of the deposited data

How the results depend on the processing

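Of 39 alternatives over 7 results, 29 stayed within the spread or counting interval of the reported value, 10 moved outside it and 0 changed direction. The difference in median width, 5 nt, was 4 nt with regions of median mapping quality 30 or more, 4 nt without chromosome 19, and 3 to 4 nt from the reads of a single experiment. The difference in the share of regions with several distinct fragments, 9.35 points, was 1.59 points when reads were counted and 1.55 points among regions of 30 to 49 nt, an alternative chosen after seeing the data. In the narrower and wider classes it was 4.53 and 9.49 points. It ranged from 6.27 points without chromosome 17 to 12.7 points without chromosome 19. By the two-sided Fisher's exact test, the 3 members called by fragments became 22 by reads, 1 with reads of mapping quality 30 or more and 0 with fragments joined within 1 nt. The count is also 0 among regions below 50 reads, but that leaves out the 3 called members themselves and says nothing about them. Joining was also chosen after seeing the data, and the causes of these changes were not tested. The mapping quality difference lay between 5.53 and 8.46 points in the alternatives run, among them the regions of 30 to 49 nt, and was 12.9 points below 30 nt and 3.11 points from 50 nt. The number of windows with at least 4 regions lay between 16 and 24. No paired analysis was possible because each read list belongs to a whole experiment and the labels tie it to both pull-downs. Most regions held 1 distinct fragment in each experiment, so smaller differences between experiments were not detectable at this depth.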
